A study of Mus musculus with 35 samples.

Results

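Mouse embryonic stem cells lacking Tet3 (Tet3-/-) were compared with wild-type cells (Tet3+/+) after both had received an empty expression vector and had been differentiated toward neuroectoderm. The members were chosen by genotype and vector alone: 2 Tet3-/- samples and 2 Tet3+/+ samples, 4 of the 35 samples of the series, all measured by bulk RNA-seq in the control arm of an experiment in which Dnmt1 was overexpressed. The parental line was V6.5, a male line from a cross of the C57BL/6 and 129 strains, grown on feeder cells and pre-plated before use, and the knockout carries a CRISPR deletion of exon 4 of Tet3. All 4 cultures received the pCAG-myc-IRES-blast vector without an insert at the switch to medium that lacked LIF and held 1 µM retinoic acid, were selected with blasticidin from 48 hours onwards for 24 hours, and were harvested at 72 hours. The comparison is therefore between the genotypes in cells that carry a vector and were drug selected but were given no DNMT1. Loss of TET3 cannot be told apart here from other differences between the cell lines, some of which are given below. The labels do not say whether samples of a genotype came from separate clones or cultures. P-values therefore measure only the spread between samples of a group, pooled over the 12 samples of the experiment, which may be technical.

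TET3 is a dioxygenase that oxidizes 5-methylcytosine, the first step in removing methylation from DNA, and it also acts through contacts with other proteins that do not need its catalysis. DNMT1 copies methylation onto the new strand after replication, so that the enzymes work in opposite directions. Withdrawal of LIF lets embryonic stem cells leave the naive pluripotent state, in which Nanog and Esrrb are high, and retinoic acid drives them toward neural fates marked by Sox1, Pax6 and Nes. The same treatment also yields some extraembryonic endoderm in culture.

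Levels are given as normalized counts, which are read counts divided by a size factor for each sample. They were compared as log2(normalized count + 1), knockout minus wild type, with limma over 18055 genes. A gene is called, or said to have risen or fallen, when its adjusted p is under 0.05 and its fold above 1.5. Because these were bulk samples, fewer cells of a type and less RNA per cell cannot be told apart.

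The 4 libraries held 41127516 and 34983643 gene-assigned reads from Tet3+/+ and 50245295 and 38516858 from Tet3-/-. Tet3 itself was measured at 2957 and 3075 normalized counts in Tet3+/+ and at 2520 and 2571 in Tet3-/-, a log2 difference of -0.24 ± 0.08 (SE) that passed the p threshold (adjusted p = 0.0114) but not the fold threshold. A count over the whole gene includes the exons outside the deletion and does not check the knockout. On day 3 of the untransfected differentiation the same genotype comparison gave -1.21, and in the empty-vector arm of a Tet3 catalytic domain experiment -1.20. The Tet3 transcript of these Tet3-/- samples was thus closer to its own wild type than in those comparisons. Those experiments also differed from this one in vector and treatment. The catalytic mutant samples (Tet3m/m) with the same empty vector held 1125 and 964.

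The Tet3-/- samples differed from Tet3+/+ in other ways that the vector does not vary. The Y-linked gene Ddx3y measured 584 and 634 normalized counts in Tet3+/+ and 1500 and 1365 in Tet3-/-, and Uty went from 379 and 433 to 1239 and 1093. Of 11 tested Y-linked genes 5 were higher and 2 lower, and Kdm5d was not called (21.7 and 16.2 against 12.99 and 14.8). Over the 936 tested genes of chromosome 8 the median log2 difference was -0.38, with 25.4% called lower and 2.99% called higher, while the medians of the other autosomes lay between -0.09 and 0.07. The 2 Tet3+/+ samples differed from each other by 0.02 or less in the median of each autosome. The Tet3m/m samples with the empty vector had chromosome 8 medians of -0.44 each against the same Tet3+/+ samples. Among the untransfected day 3 knockouts, replicate 2 had the same traits (Ddx3y 1996, chromosome 8 median -0.31) and replicate 1 did not (Ddx3y 183, chromosome 8 median 0.17). The labels name no clones. The part of chromosome 8 in the results was not tested beyond leaving its genes out, and most genes on it are marked where they are first named.

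**Figure D1:**
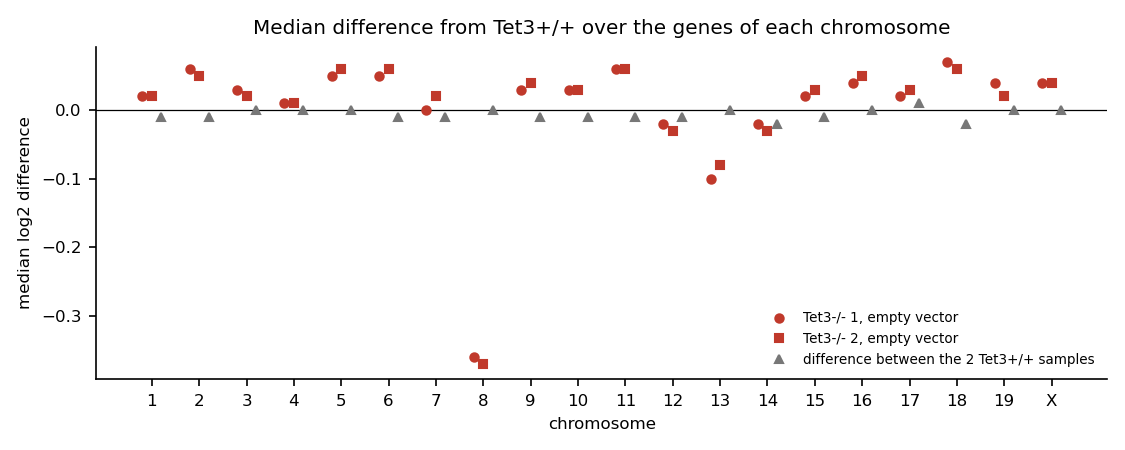
Median log2 difference from the mean of the Tet3+/+ samples over the tested genes of each autosome and the X chromosome, for each empty-vector Tet3-/- sample (red), with the median difference between the 2 Tet3+/+ samples (grey triangles). Chromosome 8 stands apart at -0.36 and -0.37 in both Tet3-/- samples.

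In all, 4504 genes were called: 1993 were higher in Tet3-/- (11.0% of the genes tested) and 2511 were lower (13.9%). The median over all genes was 0. Strong changes were mostly decreases, with 855 genes lower and 218 higher by more than 4-fold. Each list's count is to be read against the shares of 11.0% and 13.9%.

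**Figure D2:**
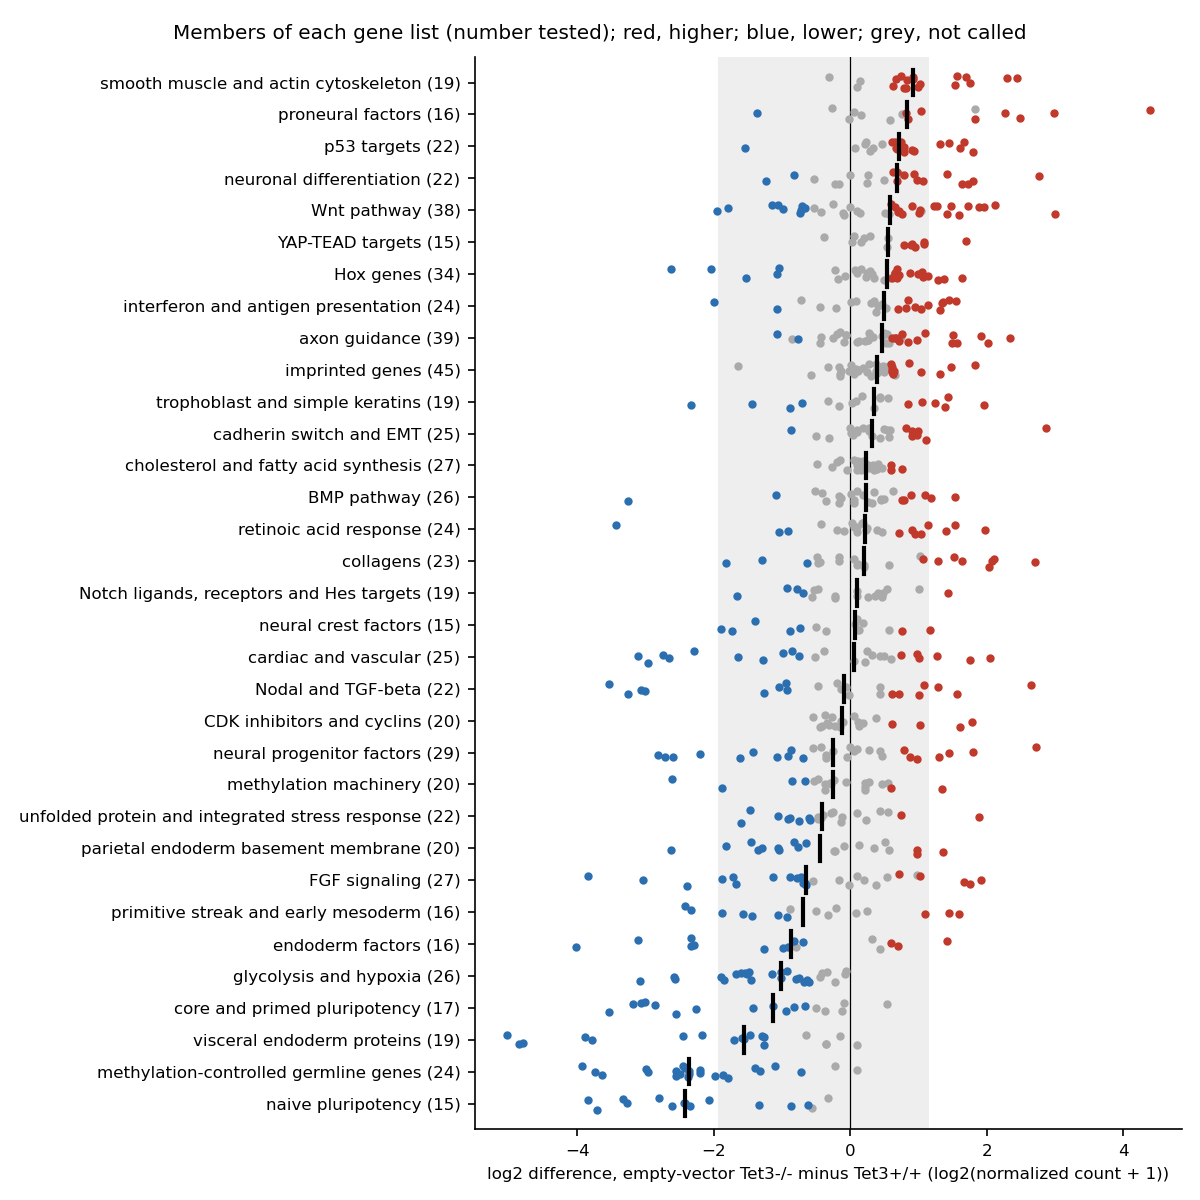
Log2 difference of each tested member of 33 gene lists (points; red, called higher; blue, called lower; grey, not called), with the list median as a black bar and the 5th to 95th percentile of all tested genes as the grey band. The naive pluripotency and germline lists have the lowest medians (-2.42 and -2.37) and the smooth muscle and actin list the highest (0.92).

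The naive pluripotency genes were lower in Tet3-/- in 13 of 15 cases, with a median log2 difference of -2.42, and none was higher. Nanog, a homeodomain factor of the naive network, measured 5286 and 5275 normalized counts in Tet3+/+ and 526 and 567 in Tet3-/-, a fall of 3.27 ± 0.05 on the log2 scale (adjusted p = 2.97e-21). Esrrb, an orphan nuclear receptor that sustains self-renewal, fell from 3180 and 3167 to 581 and 660. Fgf4, the autocrine growth factor of stem cells, had the largest difference of the list: it was at 761 and 725 in Tet3+/+ and 43.9 and 59.3 in Tet3-/- (log2 difference -3.84 ± 0.13). Klf2 and Zfp42, both on chromosome 8, differed by -2.81 and -2.42. Without the chromosome 8 genes 11 of 13 were lower, with a median of -2.35. Klf4, which is shared with many differentiated tissues, was 1 of the 2 members not called (1017 and 1003 against 667 and 708).

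Of the core and primed pluripotency genes, 12 of 17 were lower and none higher (median -1.13). Pou5f1, which encodes OCT4, fell from 4780 and 4831 to 567 and 577 normalized counts (-3.07 ± 0.05). Sox2, which neural progenitors also express, fell less, from 5990 and 6301 to 2170 and 2379 (-1.43 ± 0.08). The Nodal antagonists Lefty2 and Lefty1 fell by 3.54 and 3.01, and Tdgf1, the Nodal co-receptor, by 3.07. Lin28a, an RNA-binding protein that persists beyond the pluripotent state, was not called (-0.37 ± 0.04). Summed over 6 pluripotency markers, the level was 33823 and 33918 in Tet3+/+ and 4641 and 4992 in Tet3-/-.

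**Figure D3:**
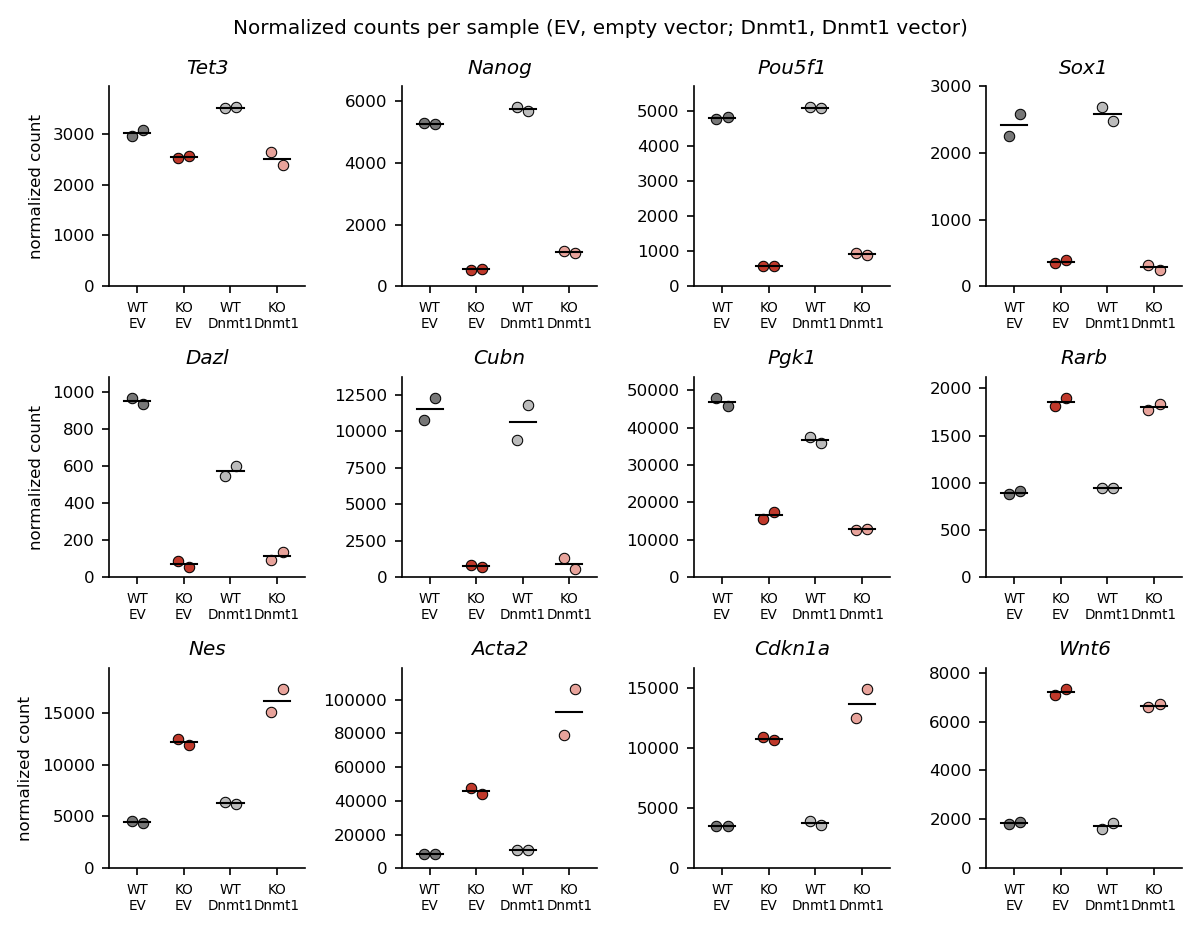
Normalized counts of 12 genes in each sample, with the mean as a bar, in Tet3+/+ (WT) and Tet3-/- (KO) cells with the empty vector (EV, dark points) or the Dnmt1 vector (pale points). The vertical axes start at 0 and differ between panels. Tet3 differs least between the genotypes of these genes, and Nanog, Pou5f1, Sox1, Dazl and Cubn are low and Acta2, Nes, Cdkn1a and Wnt6 high in both Tet3-/- samples with each vector.

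The germline genes kept silent in somatic cells by promoter methylation were lower in Tet3-/-. Of 24 tested, 22 fell and none rose (median -2.37), and without 2 genes of chromosome 8 it was 20 of 22. Dazl, an RNA-binding protein of germ cells, measured 963 and 935 normalized counts in Tet3+/+ and 87.7 and 56.1 in Tet3-/- (-3.74 ± 0.16, adjusted p = 7.25e-14). Ddx4, the germ cell helicase known as VASA, fell from 1757 and 1473 to 408 and 407. Mael, which acts in the piRNA pathway, fell from 633 and 515 to 120 and 127. Sycp3, an axial element protein of meiotic chromosomes, was measured at 89.9 and 87.0 against 11.4 and 3.17, and Hormad1, a partner of it on the chromosome axis, at 62.2 and 78.9 against 8.12 and 14.8. Slc25a31, the ADP/ATP carrier of sperm, was at 142 and 153 against 30.9 and 19.04. Tdrkh and Rhox5 were not called (-0.23 ± 0.12 and 0.10 ± 0.07).

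Promoters of many germline genes hold the palindrome CACGTG, an E-box read by MAX-containing complexes that repress them in stem cells. In the 250 bases before the annotated start (RefSeq, GRCm38.p6), 11 of the 23 germline genes with a promoter in the table held it (47.8%), against 8.09% of 12540 promoters of tested genes and 5.93% of all 27025. A single strand suffices for this search because the motif is its own reverse complement. The windows of 4 members that fell are shown, 5′ to 3′ on the strand of the gene, with CACGTG in capitals, since they carry the letters that the members share. They lie at chr10:88459337-88459586 (Sycp3, plus strand), chr3:95559427-95559676 (Hormad1, plus), chr1:166238745-166238994 (Mael, minus) and chr3:40708621-40708870 (Slc25a31, plus).
Sycp3: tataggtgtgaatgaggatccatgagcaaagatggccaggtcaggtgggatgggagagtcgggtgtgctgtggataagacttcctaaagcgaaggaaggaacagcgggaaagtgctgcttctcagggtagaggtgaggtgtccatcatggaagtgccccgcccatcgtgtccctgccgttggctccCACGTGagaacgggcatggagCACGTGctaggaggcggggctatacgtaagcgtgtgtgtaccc
Hormad1: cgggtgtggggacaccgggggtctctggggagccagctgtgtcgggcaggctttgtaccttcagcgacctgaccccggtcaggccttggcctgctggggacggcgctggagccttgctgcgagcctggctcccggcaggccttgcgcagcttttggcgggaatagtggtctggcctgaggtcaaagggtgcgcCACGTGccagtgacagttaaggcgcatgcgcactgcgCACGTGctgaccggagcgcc
Mael: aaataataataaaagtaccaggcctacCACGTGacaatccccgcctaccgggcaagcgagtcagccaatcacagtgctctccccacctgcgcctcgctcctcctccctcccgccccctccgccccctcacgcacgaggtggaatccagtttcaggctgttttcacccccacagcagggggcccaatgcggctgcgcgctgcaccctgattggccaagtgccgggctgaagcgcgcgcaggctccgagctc
Slc25a31: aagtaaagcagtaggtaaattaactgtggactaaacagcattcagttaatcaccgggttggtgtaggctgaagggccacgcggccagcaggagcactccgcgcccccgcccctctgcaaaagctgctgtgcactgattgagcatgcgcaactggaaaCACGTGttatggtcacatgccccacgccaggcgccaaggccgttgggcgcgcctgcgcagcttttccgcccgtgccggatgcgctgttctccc
Sycp3 and Hormad1 each hold 2 copies, and Mael and Slc25a31 1 each. These windows contain 12 to 19 CpG dinucleotides. Across the germline promoters the median was 16 CpG, next to 15 over all tested promoters. A match is a description of letters and not evidence that a factor binds there.

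Transcripts of glycolysis and of the hypoxia response were lower in 20 of 26 cases and higher in none (median -1.02). Ldha, lactate dehydrogenase A, fell from 65918 and 64630 normalized counts to 19786 and 23566 (-1.60 ± 0.06). Pgk1, the first ATP-yielding enzyme of glycolysis, fell from 47810 and 45787 to 15683 and 17580 (-1.49 ± 0.05). Pfkp, the platelet form of phosphofructokinase, fell by 2.57, and the glucose transporter Slc2a3, known as GLUT3, by 1.15. Egln3, a prolyl hydroxylase that HIF itself induces, fell from 2071 and 1816 to 212 and 248 (-3.08 ± 0.10). Bnip3, a mitophagy receptor under HIF control, fell by 1.90. Gapdh moved less (-0.68) and Vegfa (-0.22) and Hk2 (-0.34) were not called. Processed copies of Gapdh, Ldha and Pgk1 exist in the genome, and how reads with several matches were treated is not given in the sources used here, so these counts are uncertain to that extent.

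HIF recognizes a short core that includes the letters ACGTG. These letters, or their reverse complement CACGT, stood in the 250-base window of 13 of 24 glycolysis and hypoxia genes (54.2%), against 20.9% of the promoters of tested genes and 16.4% of all promoters. The germline list held them more often, in 16 of 23 windows (69.6%). The motif lies within CACGTG, so that every window with the palindrome above holds it as well. The windows of 3 members that fell are shown with either orientation in capitals: Ldha at chr7:46845554-46845803 (plus strand), Pgk1 at chrX:106186850-106187099 (plus) and Egln3 at chr12:54203875-54204124 (minus).
Ldha: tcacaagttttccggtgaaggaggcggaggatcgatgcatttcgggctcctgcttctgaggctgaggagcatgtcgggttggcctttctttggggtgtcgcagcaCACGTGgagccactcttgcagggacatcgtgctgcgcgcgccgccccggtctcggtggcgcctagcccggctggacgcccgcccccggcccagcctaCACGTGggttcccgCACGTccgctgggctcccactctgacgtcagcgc
Pgk1: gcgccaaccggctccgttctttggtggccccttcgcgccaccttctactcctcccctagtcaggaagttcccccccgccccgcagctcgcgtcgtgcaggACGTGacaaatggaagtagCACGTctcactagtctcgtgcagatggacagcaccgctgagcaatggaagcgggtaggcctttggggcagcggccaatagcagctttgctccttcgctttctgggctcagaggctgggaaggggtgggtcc
Egln3: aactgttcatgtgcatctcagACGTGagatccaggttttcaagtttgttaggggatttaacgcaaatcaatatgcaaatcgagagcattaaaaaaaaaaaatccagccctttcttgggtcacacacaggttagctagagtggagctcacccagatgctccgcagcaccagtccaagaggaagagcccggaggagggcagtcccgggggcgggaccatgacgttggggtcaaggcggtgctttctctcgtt
Counting both strands, Ldha holds 5 matches, Pgk1 2 and Egln3 1, and 4 of those in Ldha lie within its 2 copies of the palindrome. No binding data belong to these samples.

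Transcripts of the absorptive visceral endoderm, the tissue that feeds the early embryo, were mostly lower in Tet3-/-. Of 19 tested genes for its proteins 14 fell and none rose (median -1.56). Cubn, the receptor cubilin, measured 10788 and 12257 normalized counts in Tet3+/+ and 847 and 710 in Tet3-/- (-3.89 ± 0.20), and Amn, the protein that holds cubilin at the membrane, fell from 398 and 369 to 26.0 and 27.5. Apob fell from 512 and 621 to 14.6 and 25.4, and Apoe, the most abundant of the apolipoproteins named here, from 21235 and 22221 to 6706 and 6708. Among 16 endoderm transcription factors 10 fell and 3 rose (median -0.87). Hnf4a fell by 4.02, Sox7 by 3.12 and Gata4, at 3492 and 3794 against 771 and 717, by 2.29. Foxa1 and Foxa2, pioneer factors also used in the floor plate and the gut, were among the 3 that rose (0.70 and 0.60), but the call of Foxa1 was lost without wild-type sample a (0.55) and that of Foxa2 without wild-type sample b (0.54) or knockout sample 2 (0.56). Gata6 was not called at 2145 and 2199 against 2918 and 2533. Of the parietal endoderm and basement membrane genes 10 of 20 fell and 3 rose (median -0.44). Without the 3 genes on chromosome 8, 7 of 17 fell and 3 rose (median -0.22). Lama1, a laminin chain of the early basement membrane, fell from 38876 and 42768 to 6645 and 6551. Col4a1 and Col4a2, which lie next to each other on chromosome 8, fell by 1.83 and 1.29. The summed level of 12 endoderm markers was 186132 and 194487 in Tet3+/+ and 79209 and 75138 in Tet3-/-.

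Neural genes did not move together. Of 29 neural progenitor factors 7 rose and 10 fell (median -0.26). Without the 3 on chromosome 8, 7 of 26 rose and 9 fell (median -0.03). Sox1, the earliest specific marker of neuroectoderm and a chromosome 8 gene, fell from 2254 and 2592 normalized counts to 349 and 390 (-2.71 ± 0.11), against a chromosome 8 median of -0.38. Pax6, the other defining factor, was at 1041 and 995 against 1059 and 913 and was not called (-0.05 ± 0.12). Nes, an intermediate filament of progenitors, rose from 4531 and 4370 to 12451 and 11862 (1.45 ± 0.06), and Sox11, a factor of newborn neurons, rose by 0.79. Zic1, a zinc finger factor of the dorsal neural plate, rose from 394 and 480 to 1004 and 1141. Sox3 and Nkx6-2 fell by 1.08 and 2.60. The summed level of 8 neuroectoderm markers was 14916 and 15616 in Tet3+/+ and 17456 and 17135 in Tet3-/-, of which Nes makes up most in Tet3-/-.

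Proneural factors, which commit progenitors to neurons, were higher in 8 of 16 cases and lower in 1 (median 0.83), all from low levels. Neurog1 measured 60.3 and 97.4 normalized counts in Tet3+/+ and 281 and 265 in Tet3-/- (1.82 ± 0.29, adjusted p = 2.04e-05). Nhlh2 rose from 9.88 and 25.5 to 117 and 76.2, and Neurod1 from 9.88 and 18.6 to 54.4 and 86.8. Neurog2 (33.6 and 23.2 against 35.7 and 27.5) was not called, although it was called lower in Tet3-/- on day 3 without a vector. Ebf1 was the member that fell, by 1.37. Of 22 genes of neuronal differentiation 12 rose and 2 fell (median 0.68). The microtubule-binding protein Dcx was at 31.6 and 37.1 against 252 and 228, and Gap43, a growth cone protein, at 366 and 299 against 1155 and 1149 (1.80 ± 0.13). Tubb3, the neuronal tubulin, rose by 0.79 although it lies on chromosome 8. Among 39 axon guidance genes 14 rose and 2 fell (median 0.46), led by the receptor Epha3 (243 and 232 against 1300 and 1114) and by Sema3c and Sema6a, which rose by 2.02 and 1.91. The netrin receptor Dcc fell by 1.08. Notch pathway genes were mostly not called (1 of 19 higher, 4 lower), with the target Hes1 at 0.26 ± 0.06. Neural crest factors showed 2 of 15 higher and 5 lower, with Sox10 at 188 and 181 against 58.5 and 50.8 and Ets1 at 1111 and 1090 against 2472 and 2462.

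Retinoic acid was present in all 4 cultures. Of 24 genes of its synthesis, transport and response 8 were higher and 3 lower in Tet3-/- (median 0.21). Rarb, a receptor gene that retinoic acid induces directly, rose from 878 and 917 normalized counts to 1808 and 1893 (1.04 ± 0.08). Aldh1a2, the enzyme that makes retinoic acid in the embryo, rose from 382 and 307 to 1336 and 1383, and the degrading enzyme Cyp26b1 rose by 1.40. Crabp1, a cytoplasmic binding protein, fell by 0.91, and Cyp26a1, the classic rapid target, was not called (5657 and 6335 against 5810 and 4675). Of 34 tested Hox genes 16 rose and 5 fell (median 0.54). Hoxa4, Hoxb9 and Hoxb13 rose by 1.37, 1.29 and 1.63, whereas Hoxa9 fell from 681 and 623 to 174 and 142 and Hoxa10 from 429 and 508 to 70.6 and 78.3. Hoxb1, an early hindbrain gene, fell from 2528 and 2491 to 1220 and 1221.

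The genes of smooth muscle and the contractile actin cytoskeleton were higher in 16 of 19 cases and lower in none (median 0.92). Acta2, smooth muscle actin, measured 8759 and 8250 normalized counts in Tet3+/+ and 47864 and 44240 in Tet3-/- (2.44 ± 0.10, adjusted p = 6.33e-14). Cald1, which regulates actomyosin, rose from 9630 and 9143 to 33311 and 30210, Cnn1, calponin, from 1223 and 1045 to 3999 and 3354, and Tagln, transgelin, from 2348 and 2186 to 6976 and 6247. Des and Srf were not called (-0.32 ± 0.08 and 0.09 ± 0.05). Serum response factor, the product of Srf, binds a 10-base element called the CArG box. It was found in the 250-base window of 4 of 16 of these genes (25.0%), against 1.24% of the promoters of tested genes and 1.39% of all promoters, counting both strands. The window of Myl9, a regulatory light chain of myosin that rose from 2989 and 2681 to 5114 and 4923, is shown with the element in capitals (chr2:156775214-156775463, plus strand).
Myl9: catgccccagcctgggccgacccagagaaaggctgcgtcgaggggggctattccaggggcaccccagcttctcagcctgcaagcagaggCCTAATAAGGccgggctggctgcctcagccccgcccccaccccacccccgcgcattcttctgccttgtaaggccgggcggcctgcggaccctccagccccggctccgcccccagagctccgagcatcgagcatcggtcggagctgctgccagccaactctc
Markers of feeder fibroblasts did not move together, and their part in the result was not tested. Of 10 such markers 4 were higher, 2 lower and 4 not called (median 0.44). Their sum went from 23064 and 21728 to 39785 and 39300. Col1a1, at 8321 and 7499 against 19077 and 19225, and Col3a1, at 2906 and 2696 against 8878 and 8591, rose. Col1a2 was not called (7343 and 6748 against 7535 and 7663). With the Dnmt1 vector 3 of the markers were higher and 3 lower (median -0.04). No feeder marker was at 0 in these samples: Dcn was at 506 and 442 against 380 and 417, and Lum was at 5.93 and 4.64 against 16.2 and 12.7, neither called.

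Matrix genes followed a mixed course. Of 23 collagens 8 rose and 3 fell (median 0.20). Without the 2 on chromosome 8, 8 of 21 rose and 1 fell (median 0.20). Col11a1 rose from 2215 and 2217 to 14070 and 15026 normalized counts (2.71 ± 0.06), Col12a1 from 3006 and 3120 to 13171 and 13337, and Col4a5 from 1955 and 1882 to 8140 and 8091. The collagen IV chains on the X chromosome thus rose while those on chromosome 8 fell. Of 25 genes of the cadherin switch 7 rose and 1 fell (median 0.32). Prrx1, a mesenchymal homeobox factor, rose from 91.9 and 83.5 to 629 and 661, and Vim rose by 0.99. Cdh1, a chromosome 8 gene, and Cdh2, the cadherins that give the switch its name, were both not called (0.43 ± 0.05 and 0.54 ± 0.07). Targets of YAP and TEAD were higher in 7 of 15 cases and lower in none (median 0.55), among them Axl (1345 and 1364 against 4367 and 4411) and Ccn1 (12838 and 12789 against 24892 and 24331).

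Wnt pathway genes were higher in 18 of 38 cases and lower in 9 (median 0.58). Without the 2 genes on chromosome 8, 16 of 36 were higher and 9 lower (median 0.54). Among the ligands, Wnt6 rose from 1810 and 1884 normalized counts to 7067 and 7313 (1.96 ± 0.14), Wnt10b from 97.8 and 85.8 to 806 and 675, and Wnt4 from 413 and 434 to 1134 and 1233. Among readouts of the pathway, the nuclear effector Lef1 rose from 204 and 197 to 728 and 751, the receptor Lgr5 by 1.73 and the feedback gene Axin2 by 0.71. Secreted antagonists went both ways. Of 9 on the list 6 fell, among them Sfrp5 by 1.95, Frzb by 1.06 and Dkk1 by 0.73, and 3 rose, Notum by 1.27, Sfrp1 by 1.02 and Dkk3 by 0.70. Dkk2, a secreted modulator outside the list, rose from 119 and 118 to 1511 and 1497.

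In FGF signaling 14 of 27 genes fell and 5 rose (median -0.65). The feedback inhibitor Spry4 fell from 675 and 576 normalized counts to 65.0 and 86.8, and Etv5, an ETS factor that FGF induces, from 3121 and 2821 to 893 and 963. The immediate early genes Fos and Egr1, which many stimuli induce, rose by 1.76 and 1.67. Nodal and TGF-beta genes split into 7 higher and 8 lower of 22 (median -0.10). Those lower included Lefty2 and Gdf3 of the Nodal branch (-3.54 and -3.26), the activin subunit Inhbb (-0.95) and the activin antagonist Fst (-1.05), and those higher included the ligands Tgfb2, from 1075 and 1032 to 3072 and 3189, and Inhba, from 31.6 and 23.2 to 186 and 165. BMP pathway genes were mostly not called, with 6 of 26 higher and 2 lower. Among genes of the primitive streak and early mesoderm 3 of 16 rose and 7 fell (median -0.70). Eomes was at 259 and 318 against 52.8 and 59.3, and Tcf15, a factor that primes cells for differentiation, at 665 and 757 against 134 and 127. Cardiac and vascular genes showed 6 of 25 higher and 10 lower. Tie1 and Pecam1, endothelial receptors, fell by 2.96 and 2.66, of which Pecam1 is also expressed by naive stem cells.

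Targets of p53 were higher in 15 of 22 cases and lower in 1 (median 0.71). Cdkn1a, which encodes the CDK inhibitor p21, rose from 3489 and 3539 normalized counts to 10862 and 10643 (1.61 ± 0.06, adjusted p = 1.14e-14). Mdm2, the ligase that limits p53, rose from 6892 and 6697 to 11006 and 10834, Perp, an effector of apoptosis and adhesion, from 1946 and 1938 to 7078 and 6488, and Plk2, a kinase, from 4405 and 4270 to 13847 and 13537. The member that fell was Gdf15, a chromosome 8 gene (64.2 and 58.0 against 17.9 and 23.3). Trp53 itself was not called (0.07 ± 0.05). Of 20 CDK inhibitors and cyclins 4 rose and none fell: Cdkn1a, Cdkn2b (746 and 638 against 2394 and 2365), Cdkn2a (1.02 ± 0.08) and Ccnd1 (0.61 ± 0.06), whose call was lost without knockout sample 2 (0.55).

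The methylation machinery moved little as a group, with 2 of 20 genes higher and 4 lower (median -0.26). Dnmt3l, the cofactor of de novo methylation in stem and germ cells, fell from 5837 and 5487 normalized counts to 1406 and 1679 (-1.88 ± 0.08). Dnmt3b fell by 0.67 and Tet1 by 0.86, from 2919 and 3350 to 1594 and 1860. Tet2 was not called (-0.30 ± 0.09). Dppa3, which shields DNA from maintenance methylation, was at 326 and 292 against 50.3 and 48.7. Dnmt1, the gene put on the other vector, was at 14679 and 15225 against 17356 and 17554 and was not called (0.22 ± 0.07), and Uhrf1, the factor that guides it, was not called either (-0.37 ± 0.04). Gadd45g was among the members that rose, by 1.35.

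Of 45 imprinted genes, expressed from the allele of a given parent, 12 rose and none fell (median 0.39). Dlk1 rose from 6371 and 6635 normalized counts to 22849 and 23034 (1.82 ± 0.06) and Igf2 from 15086 and 14913 to 29810 and 31948, while H19, whose imprint is shared with Igf2, was not called (-0.58 ± 0.05). Simple keratins were higher: Krt8 rose from 24125 and 24081 to 58608 and 55187 and Krt18 from 18668 and 18218 to 38290 and 38100. In the list of trophoblast genes and keratins that holds them 6 of 19 rose and 4 fell, with the trophoblast factor Cdx2 not called (105 and 88.1 against 94.2 and 103). Interferon and antigen presentation genes were higher in 11 of 24 cases and lower in 2, with the RNA sensor Ifih1 at 37.5 and 48.7 against 140 and 116 and Ifitm1 falling by 2.00. Stress response genes of the unfolded protein and amino acid pathways showed 2 of 22 higher and 8 lower, with Asns, asparagine synthetase, at 8685 and 8678 against 3039 and 3210. Cholesterol and fatty acid synthesis was nearly level, with 3 of 27 higher and none lower.

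The largest single changes, by a rule on fold and level, included genes of low expression. Cyp2b23, a cytochrome P450 gene, measured 151 and 165 normalized counts in Tet3+/+ and 0 and 6.35 in Tet3-/-, and Tfec, a basic helix-loop-helix factor, at 88.9 and 111 against 3.25 and 2.12. On the other side, Calcr, the calcitonin receptor, rose from 33.6 and 32.5 to 596 and 576 (4.11 ± 0.21), Dach2, a homolog of fly dachshund, from 23.7 and 18.6 to 366 and 356, and Ptgs2, the inducible cyclooxygenase, from 31.6 and 20.9 to 304 and 261.

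The genotype comparison was repeated in samples that the empty-vector values did not use, the 2 Tet3+/+ and 2 Tet3-/- samples with the Dnmt1 vector, which carry the same Y-linked and chromosome 8 traits. There 4492 genes were called (24.9% of those tested), 2152 higher and 2340 lower. Dnmt1 itself was among those higher (log2 difference 0.65). With that vector it measured 22799 and 23768 normalized counts in Tet3+/+ and 33380 and 39854 in Tet3-/-. Of the 4504 genes called with the empty vector, 3036 (67.4%) were also called with the Dnmt1 vector in the same direction and 13 in the other. Those 3036 genes made up 67.6% of the Dnmt1-vector calls. Both sets of calls came from the same fit and share each gene's estimate of spread, so their overlap is not fully independent. The median log2 differences of the genes called higher and lower with the empty vector were 1.00 and -1.44 with the empty vector and 0.95 and -1.02 with the Dnmt1 vector. The empty-vector values chose these genes, so smaller medians in other samples are favored in advance.

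The difference between vectors in the genotype difference passed its own test (the interaction) in 721 genes (3.99%), 481 of them with a higher value with the Dnmt1 vector. Genes called with the empty vector were chosen by the same values that the interaction subtracts, which in advance favors interactions against their direction. Of the 2511 genes lower with the empty vector 344 had a called interaction, in 324 of them against the direction of the fall. Germline genes were among these: 12 of 24 had a called, positive interaction, and their median was -1.07 with the Dnmt1 vector against -2.37 with the empty vector. For Dazl the interaction was 1.42, between log2 differences of -3.74 with the empty vector and -2.32 with the other. An interaction does not say which genotype moved. Dazl in Tet3+/+ was at 963 and 935 with the empty vector and 546 and 597 with the Dnmt1 vector. In Tet3-/- it was at 87.7 and 56.1, then 94.1 and 138. Proneural factors went the other way, with medians of 0.83 and -0.11. Neurog1 had an interaction of -2.12 and Nhlh2 of -2.47, and their genotype differences with the Dnmt1 vector were -0.30 and 0.02. Neurog1 in Tet3+/+ was at 60.3 and 97.4 with the empty vector and 234 and 191 with the Dnmt1 vector. In Tet3-/- it was at 281 and 265, then 238 and 124. For smooth muscle and actin the medians were 0.92 and 1.23.

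**Figure D4:**
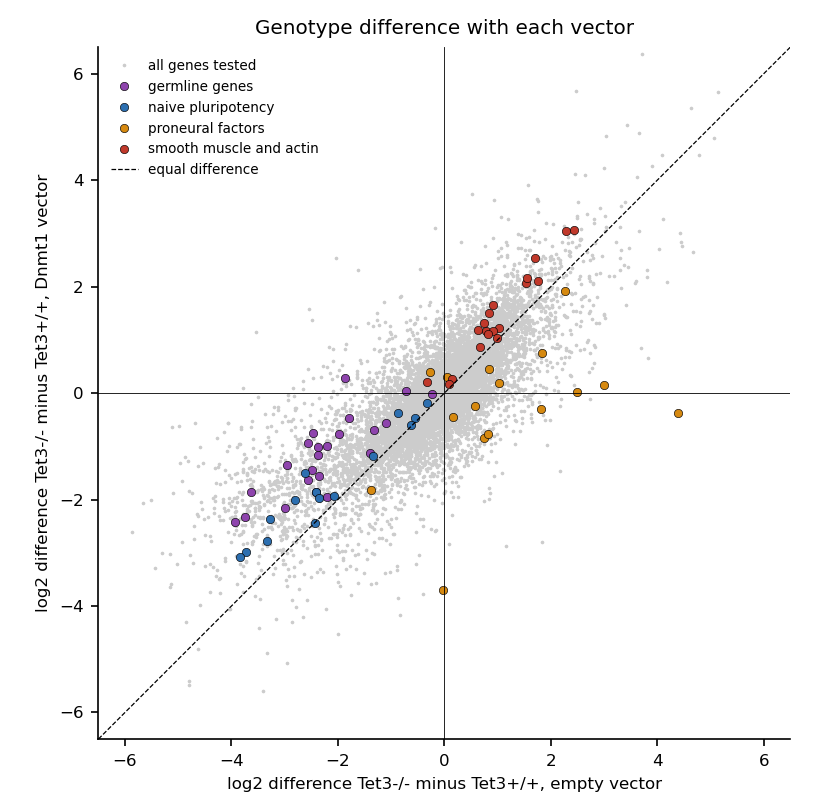
Log2 difference between Tet3-/- and Tet3+/+ with the empty vector (horizontal) and with the Dnmt1 vector (vertical) for 18055 genes, with 4 lists in color and the line of equal difference. Germline genes (purple) lie above the line on the left, at medians of -2.37 and -1.07, and several proneural factors (orange) lie below it on the right.

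The untransfected day 3 comparison, 2 Tet3-/- against 3 Tet3+/+ samples, called 82 genes higher (0.458%) and 33 lower (0.184%) of 17915. Its replicates of Tet3-/- differ from each other in the Y-linked and chromosome 8 traits. They also spread more: the median absolute log2 difference between the 2 was 0.263, against 0.104 between the empty-vector Tet3-/- samples. The paper, using DESeq2 at the same thresholds, reports many more changed genes for this day 3 comparison. A gene not called on day 3 is thus not shown to be unchanged. Of the empty-vector genes called higher and tested on day 3, 45 of 1984 were called higher there and 2 lower, and of those called lower, 12 of 2231 were called lower and 3 higher. The medians of these genes on day 3 were 0.36 and -0.19, and in the empty-vector arm of the Tet3 catalytic domain experiment, with 1 sample of each genotype and no test, 0.05 and 0.09. The lists differed in this respect. Smooth muscle and actin genes had a median of 1.07 on day 3, endoderm factors -0.80 and p53 targets 0.43, whereas naive pluripotency genes were at -0.23 and germline genes at 0.01. In the catalytic domain experiment endoderm factors were at -1.49 and visceral endoderm proteins at -1.86, naive pluripotency genes at 1.29 and smooth muscle genes at 0.02. Values of the 3 experiments were normalized separately, and no test was made between them. Their protocols differed too. Per the paper's methods, the Tet3 catalytic domain experiment used another vector, given on day 2 of differentiation, with collection 48 hours later. No drug selection is described for it. A difference between the experiments therefore cannot be told apart from one of protocol.

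**Figure D5:**
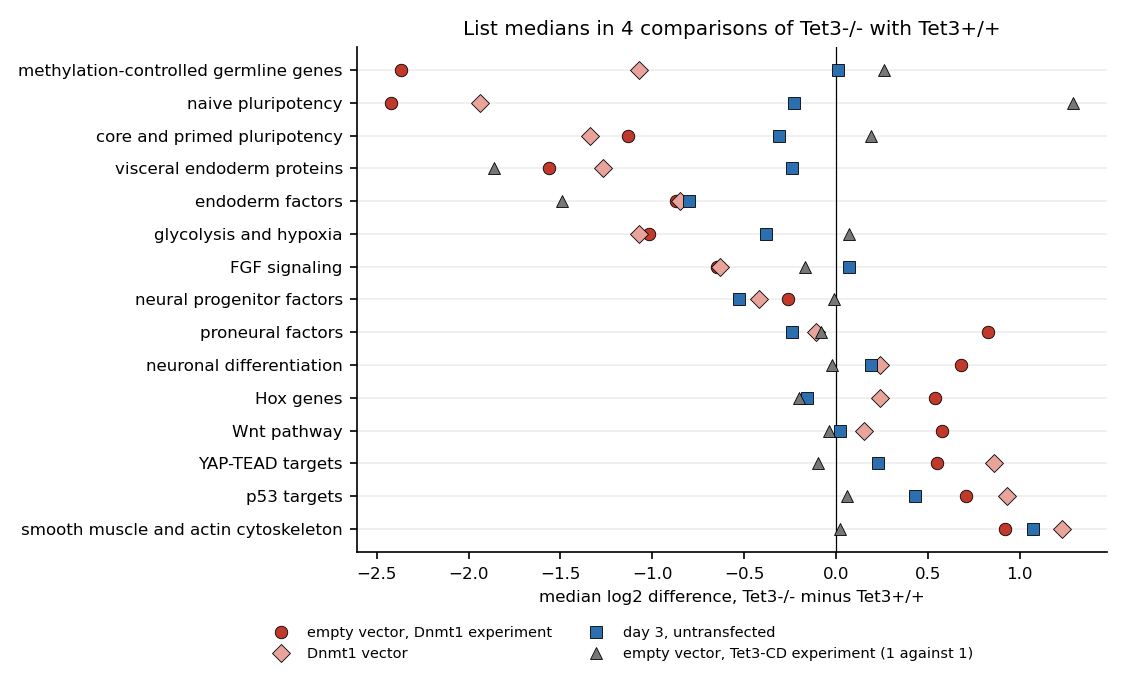
Median log2 difference between Tet3-/- and Tet3+/+ over 15 gene lists in 4 comparisons: the empty vector (red circles), the Dnmt1 vector (pale diamonds), untransfected day 3 (blue squares) and the empty-vector arm of the Tet3 catalytic domain experiment (grey triangles, 1 sample against 1). Endoderm factors are below 0 in each, and naive pluripotency ranges from -2.42 to 1.29. The protocols of the experiments differ.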

How the data were processed

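Bulk RNA-seq of 12 samples (3 genotypes and 2 vectors) was used, of which the 4 empty-vector Tet3+/+ and Tet3-/- samples form the comparison. Per the paper's methods and the submitters' processing notes, the authors trimmed reads with Trim Galore 0.6.7, aligned them with STAR 2.7.9a, counted genes with featureCounts and normalized with DESeq2. The build is mm39 in the methods and mm10 in the notes, and the treatment of strand and of reads with several matches is not given in the sources used here. The deposited values are a signal in normalized counts, gene counts divided by a size factor per sample. All values came out as whole reads within 0.01 once that factor was undone. Total reads per sample lay between 31155842 and 50845950, so counting error was small for all but low genes.

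Both wild-type columns bear the same header and were taken as 2 unnumbered samples of that group. A chi-square per gene between the 2 samples of each group gave 3.91 for the empty-vector Tet3+/+ pair and 4.36 for the Tet3-/- pair, above the value near 1 of sampling noise alone. With the Dnmt1 vector it was 3.93 for the Tet3+/+ pair and 10.7 for the Tet3-/- pair, the highest of the 6 groups. The Dnmt1-vector and interaction values use that pair. Log2(value + 1) was fitted with limma 3.58.1 (R 4.3.3, empirical Bayes with trend) over all 12 samples in 6 groups for the 18055 of 18091 genes with a mean of at least 10, with Benjamini-Hochberg adjustment, and checked on simulated data. Two-sided tests were used throughout. A call needed an adjusted p under 0.05 and a fold above 1.5. Rescaling by TMM (edgeR 4.0.16) moved sample factors only to 0.9932 to 1.0085, and edgeR and DESeq2 1.42.0 were alternatives on the recovered reads. Chromosomes came from the GENCODE annotation, with RefSeq for symbols that it lacked. The 250-base promoter windows came from RefSeq (GRCm38.p6). The first entry by coordinate was used for each symbol, and 536 of 725 tested list genes had one. Motifs were searched on both strands.

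Named genes were Tet and Dnmt1, members of 33 lists with the largest called changes in each direction or that define the list, Y-linked genes, and the 15 largest rises and falls with a mean of at least 100 in the higher group. Members and lists were chosen with earlier results of these data known, so their counts and medians are descriptions.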

Additional observations from a re-analysis of the deposited data

Results flagged for a closer look

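For the genes below, the genotype difference with the Dnmt1 vector differed from that with the empty vector by the interaction test (limma, adjusted p under 0.05 and fold above 1.5), which called 3.99% of all genes. Each value is the Dnmt1-vector log2 difference minus the empty-vector log2 difference, over 2 samples in each of 4 groups.

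Among genes that were lower in Tet3-/- with the empty vector, most values were positive, so the genotype difference was smaller with the Dnmt1 vector. A change of level in either genotype can produce this, and the choice of genes by the empty-vector values favors it. In the pluripotency lists the values were 0.90 for Nanog, 0.76 for Fgf4, 0.80 for Klf2, 0.61 for Pou5f1, 0.82 for Lefty2, 0.96 for Lefty1 and 0.95 for Gdf3. In the germline list they were 1.42 for Dazl, 1.20 for Ddx4, 1.20 for Mael and 1.63 for Hormad1. Of endoderm and vascular genes, Amn had 0.95, Sox7 0.79 and Tie1 1.36. Eomes had 0.63, Hoxb1 0.99, Ifitm1 0.65 and Cyp2b23 3.26. Upp1, a uridine phosphorylase named after its values were seen, had 1.06, and Zscan4c and Zscan4d, likewise, 1.34 and 1.27. Exceptions were Bnip3 at -0.65 and Crabp1 at -1.44, whose genotype differences were larger with the Dnmt1 vector.

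The genes in this paragraph were all called higher in Tet3-/- with the empty vector, and that choice favors negative values. The neural and patterning genes among them had negative values. They were -2.12 for Neurog1, -2.47 for Nhlh2, -1.71 for Zic1, -0.63 for Sox11, -1.54 for Epha3 and -1.39 for Aldh1a2. Further negative values were -1.28 for the cyclin Ccnd1, -1.07 for Prrx1, -0.71 for Col4a5, -1.16 for Dlk1, -0.69 for Igf2, -1.11 for Notum and -0.87 for Sfrp1. Ccnd1 changed sign between vectors, being called higher in Tet3-/- with the empty vector (0.61) and lower with the Dnmt1 vector (-0.67).

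Contractile genes had positive values, 0.63 for Acta2, 0.83 for Cnn1 and 0.67 for Myl9, as did Wnt10b at 1.24, so that their levels in Tet3-/- stood further above Tet3+/+ with the Dnmt1 vector. Cyp26a1 had 1.11, between a difference of -0.20 with the empty vector, not called, and 0.91 with the Dnmt1 vector. No sample was compared for outliers, since each group holds 2 samples.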

How the results depend on the processing

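No paired analysis was possible because both Tet3+/+ columns carry the same replicate number. The count of 4504 called genes was 4523 with edgeR, 4398 with DESeq2, 4375 and 4559 with pseudocounts of 0.1 and 5, 4494 after TMM rescaling, 4504 with only the 4 compared samples in the fit and 4233 without chromosome 8 (an alternative chosen after seeing the data), and 4047 to 4162 when a sample was left out. Without a fold threshold it was 9612, and with a threshold of 2 it was 2738, as their construction implies. The genes shared with the Dnmt1 vector (3036) were then 7211 and 1730, and the interaction calls (721) 1753 and 374. The share of higher genes, 44.2%, was 48.8% at a mean of at least 50, 50.1% without a fold threshold, which reverses the balance, 36.5% at a fold of 2, 46.4% without chromosome 8 and 43.6% to 46.2% when a sample was left out. The cause was not tested.

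Medians near 0 changed sign: the Notch list to -0.06 and the cardiac and vascular list to -0.52 at a mean of at least 50. With a sample left out, the cardiac and vascular median ranged from -0.11 (without wild-type sample a; -0.10 without knockout sample 2) to 0.19, and that of the neural crest list from -0.11 (without knockout sample 2) to 0.05. Of the 157 named genes, 122 kept their direction and call in all alternatives. Changes of sign were limited to genes not called: with a sample left out Cdx2 ranged from -0.09 to 0.16 (-0.03 without knockout sample 2), Neurog2 from -0.10 to 0.42 (-0.02 without knockout sample 1) and Pax6 from -0.16 to 0.06. H19 was called by edgeR (-0.59). The calls of Foxa1 (0.55), Foxa2 (0.54 and 0.56) and Ccnd1 (0.55) were each lost when a sample was left out. Depth limits the genes under about 100 normalized counts, whose errors were the widest.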

Other observations

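Several families were noticed after their values were seen, and are given as values only. The Zscan4 genes, which mark the brief phase in which stem cells resemble the embryo of the early cleavage stages, were all lower in Tet3-/-. The 9 tested genes summed to 22854 and 21066 normalized counts in Tet3+/+ and 1786 and 1717 in Tet3-/-, with the Dnmt1 vector to 14337 and 15318 against 3401 and 2994. Zscan4c alone was at 4001 and 3924 against 344 and 328. Families active in the same phase were lower too: 5 of 5 Usp17l genes, 2 of 2 Tcstv genes, 19 of 21 Pramel genes and 4 of 5 Tdpoz genes. On day 3 without a vector, the differences of Zscan4c and Zscan4d were 0.15 and 0.12, neither called. Members of these families are near-identical copies, so that the values of single members are uncertain and the sums less so.

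Upp1, which splits uridine and is high in naive stem cells, measured 4524 and 4565 normalized counts in Tet3+/+ and 231 and 217 in Tet3-/- (-4.34 ± 0.06).

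Of 84 ribosomal protein genes 37 were lower and none higher (median -0.56), and their share of all reads went from 6.08% and 6.14% to 4.03% and 4.06%. Of 47 histone genes 30 were lower and none higher (median -1.16), all together at a low level. They summed to 4005 and 4339 normalized counts in Tet3+/+ and 2162 and 2172 in Tet3-/-. The share of reads from the mitochondrial genome was 0.906% and 0.804% in Tet3+/+ and 1.11% and 1.22% in Tet3-/-. Of the clustered protocadherins, 8 of 11 Pcdhb and 12 of 21 Pcdhg genes were higher and none of these lower, and of 2 Pcdha genes 1 was higher and 1 lower. These cell adhesion genes also share sequence between members.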
